A study of Mus musculus with 4 samples.

Results

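The genes described here are the ligands, receptors and latent binders of the transforming growth factor beta (TGF-beta) pathway: Tgfb1, Tgfb2, Tgfb3, Tgfbr1, Tgfbr2, Tgfbr3, Ltbp1, Ltbp2, Ltbp3 and Ltbp4. They were chosen by name, and all 10 were found among the 32287 features of the deposited matrices. The study counted RNA in single cells sorted from the mouse aorta, in 4 libraries: the aortic root (Root), green and red cells of the ascending aorta (Asc-GFP, Asc-RFP) and green cells of the arch (Arch-GFP). Transcripts were counted near the 3′ end, each molecule once by its unique molecular identifier (UMI). All animals were 12 weeks old and had the Cre driver Wnt1-Cre2, which acts in neural crest, with the mT/mG reporter, in which cells make tdTomato until recombination and eGFP after it. The eGFP groups therefore stand for cells with a history of the driver and the tdTomato groups for cells without one, and no group lacks the driver or the reporter or has TGF-beta signalling disrupted by a labelled allele or agent. Viable single cells were sorted on GFP or RFP, by segment, and on ITGA8, a surface integrin of smooth muscle cells (SMCs), after enzyme digestion in the cold. How many animals entered a library and of which sex they were is not given.

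A barcode was kept if it had 1000 or more detected genes and no more than 10% of its UMIs were mitochondrial. Root held both colours and was split by reporter UMIs, into 576 Root eGFP cells (at least 8 eGFP and at most 1 tdTomato UMIs) and 1822 Root tdTomato cells (at least 2 tdTomato and at most 3 eGFP UMIs). The other 562 of its 2960 cells entered neither group, and few lay near the eGFP bound: 3 cells had 8 or 9 eGFP UMIs and 6 had 6 or 7. Asc-GFP gave 6408 cells, Asc-RFP 4030 and Arch-GFP 8031, with medians of 12628 to 13755 UMIs per cell over the 5 groups. UMIs were summed over the cells of a group, to totals of 7670195 (Root eGFP) to 100987052 (Arch-GFP), and a gene's level is its UMIs per 1000000 of the total (CPM). All 12 SMC markers, among them Acta2 and Myh11, were detected in every group, at a summed level of 49166 to 56343 CPM. Macrophage markers summed to 666 CPM in Root tdTomato and 186 CPM in Asc-RFP, against 0.941 to 23.3 CPM in the 3 eGFP groups, with none of the 10 markers at 0 in any group. The groups also differed in sex. Of cells with Xist or Y-linked UMIs but not both, 88.2% were female (Root eGFP), 87.0% (Root tdTomato), 70.1% (Asc-GFP), 54.4% (Asc-RFP) and 29.1% (Arch-GFP). Each group is 1 library or part of 1, so differences have no replicate check and were not tested. The 95% intervals given after levels and log2 ratios cover counting error only.

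As background, TGF-beta ligands are secreted bound to their own propeptide, which keeps them latent, and this complex is linked to latent TGF-beta binding proteins (LTBPs) that anchor it in the fibrillin microfibrils of the elastic wall. Freed ligand binds the type II receptor TGFBR2, which recruits and phosphorylates the type I receptor TGFBR1, and SMAD proteins carry the signal to the nucleus. Variants in several of these genes cause inherited aneurysm of the aortic root and ascending aorta.

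Of the 10 genes, Ltbp2 differed most along the aorta and was highest in the arch, and Tgfbr1 and Ltbp4 differed least. The highest level of Ltbp2 among the 5 groups was 2.78 times its lowest (interval 2.44 to 3.19). Among 5253 genes with at least 20 CPM in every group, 99.4% had a smaller range than Ltbp2, and the median range was 1.17-fold. Tgfbr1 had a range of 1.12-fold and Ltbp4 of 1.14-fold. The other 7 genes lay between 1.22-fold (Tgfbr3) and 1.52-fold (Tgfb3).

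**Figure D1:**
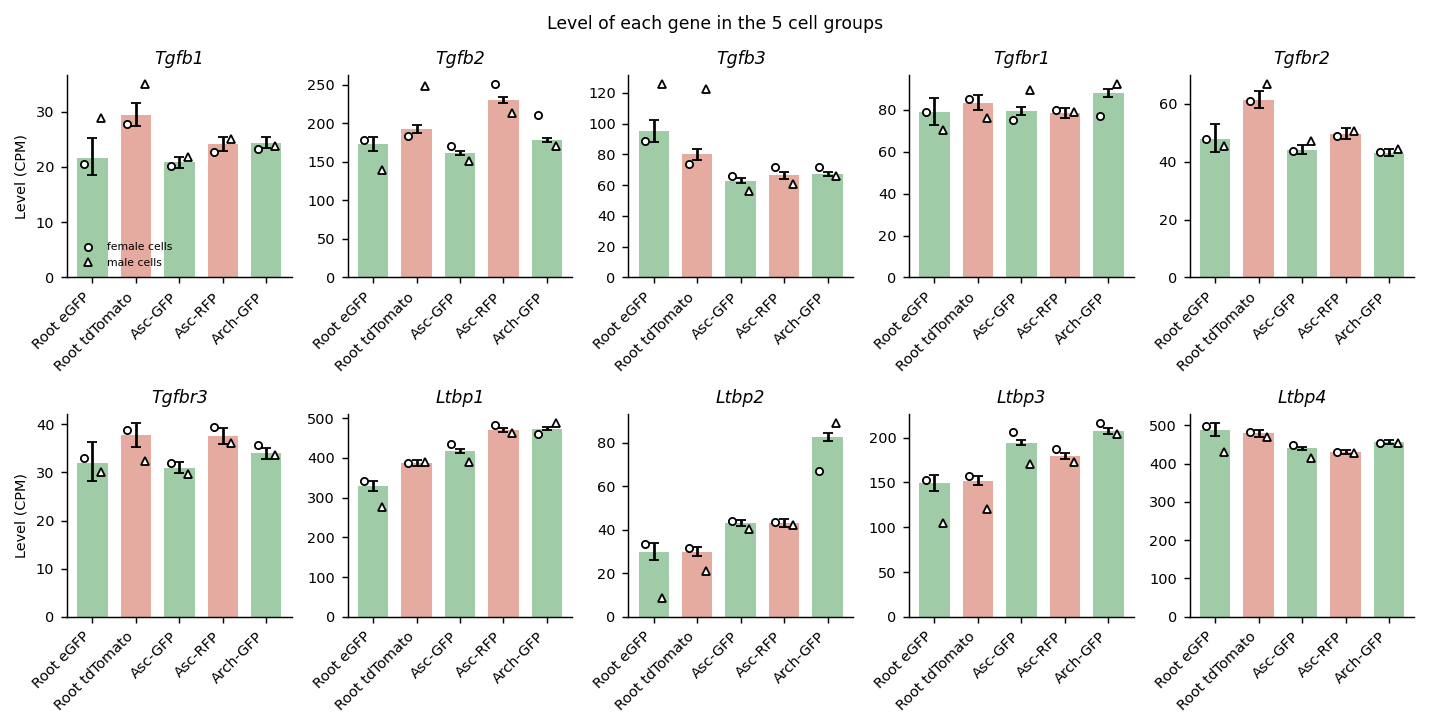
Level of each of the 10 genes in CPM (vertical axes, from 0) in the 5 cell groups, with bars for all cells, 95% counting intervals, and open circles and triangles for female and male cells. Green bars are eGFP groups and red bars tdTomato groups; Ltbp2 is at 82.7 CPM in Arch-GFP and at 29.7 to 43.0 CPM elsewhere.

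The binders Ltbp1, Ltbp2 and Ltbp3 were lower in both root groups than in the ascending group of the same colour and were higher together in a subset of arch cells. The 250 bases upstream of their RefSeq start sites (GRCm38.p6) are shown because these 3 genes shared those differences. They did not move together in every comparison. Between Asc-GFP and Asc-RFP the log2 ratio was -0.17 for Ltbp1 and 0.12 for Ltbp3. Capitals mark matches to CAGAC on either strand, a core sequence that SMAD proteins can bind. The window of Ltbp1 shown, at the upstream start, is chr17:75005279-75005528 on the plus strand, that of Ltbp2 chr12:84876492-84876741 on the minus strand and that of Ltbp3 chr19:5740650-5740899 on the plus strand.
Ltbp1: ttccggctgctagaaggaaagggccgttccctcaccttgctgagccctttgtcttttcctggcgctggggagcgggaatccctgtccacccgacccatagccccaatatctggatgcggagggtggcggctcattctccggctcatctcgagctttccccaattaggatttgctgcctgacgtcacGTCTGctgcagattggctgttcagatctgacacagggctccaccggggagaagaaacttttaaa
Ltbp2: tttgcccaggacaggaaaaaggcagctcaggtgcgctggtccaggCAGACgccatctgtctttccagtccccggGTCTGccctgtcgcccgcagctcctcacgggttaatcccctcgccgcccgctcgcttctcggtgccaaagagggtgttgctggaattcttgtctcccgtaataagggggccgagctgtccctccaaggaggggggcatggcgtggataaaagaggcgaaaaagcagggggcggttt
Ltbp3: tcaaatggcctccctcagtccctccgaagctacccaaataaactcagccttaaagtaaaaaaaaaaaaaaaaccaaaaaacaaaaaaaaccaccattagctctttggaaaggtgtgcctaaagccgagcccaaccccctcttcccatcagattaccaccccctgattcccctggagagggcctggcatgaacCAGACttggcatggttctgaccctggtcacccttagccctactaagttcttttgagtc
The windows shown of Ltbp1 and Ltbp3 hold 1 match each and that of Ltbp2 holds 2. RefSeq lists another start for Ltbp1, whose window, chr17:75178531-75178780 (not shown), holds 2. The motif is common, and 42.2% of 32851 promoter windows of the same length hold it. TGANTCA, the AP-1 motif, is in 6.75% of all windows, and the CArG box bound by serum response factor is in 1.47%. Neither was found in a window of any of the 8 genes with an entry.

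Among the ligands, Tgfb2 was the most counted and, with both sexes together, was highest in the tdTomato cells of the ascending aorta. Tgfb2 encodes a ligand with a known part in development of the outflow tract and aortic valve. The gene lies at chr1:186622792-186705989 on the minus strand (mm10, GENCODE M21, as for the positions below). It stood at 173 CPM (Root eGFP), 192 (Root tdTomato), 162 (Asc-GFP), 230 (Asc-RFP) and 179 (Arch-GFP). Over all cells, Asc-RFP was above all other groups, beyond counting error, and Arch-GFP and Root eGFP did not differ beyond it. This order differed by sex. In male cells, Root tdTomato was at 248 CPM (231 to 266), above Asc-RFP at 214 CPM (207 to 220). In female cells, Asc-RFP was highest, at 251 CPM (244 to 257). Female Arch-GFP cells were at 211 CPM (205 to 217), above Root eGFP at 178 CPM (168 to 189). The ascending aorta gave a log2 ratio of Asc-GFP to Asc-RFP of -0.51 (-0.54 to -0.47).

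A gene with 5 CPM or more in either group was called where its log2 ratio reached 0.5 in either direction and the interval left out 0. Tgfb2 was the only 1 of the 10 genes called between Asc-GFP and Asc-RFP, where 3.58% of 9711 genes were called and 1.93% were called lower. Its ratio lay close to the threshold, and it was -0.46 in barcodes with at least 2000 genes and at most 5% mitochondrial UMIs, where the call was lost. By sex it was -0.56 in female cells and -0.49 in male cells. In the root the same contrast of colours was smaller, -0.15 (-0.24 to -0.07). There it was -0.04 in female cells and -0.83 (-1.13 to -0.54) in the 64 male eGFP and 223 male tdTomato cells.

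Tgfb3 was higher in the root. Tgfb3 encodes a ligand that, like Tgfb2, can underlie inherited aneurysm. At chr12:86056745-86079041 on the minus strand, it is on the chromosome that also holds Ltbp2. Its level was 95.2 CPM (Root eGFP), 80.0 (Root tdTomato), 62.8 (Asc-GFP), 66.4 (Asc-RFP) and 67.3 (Arch-GFP). Both root groups were above the ascending and arch groups, and Arch-GFP and Asc-RFP did not differ beyond counting error. From Root eGFP to Asc-GFP the log2 ratio was 0.60 (0.49 to 0.71). It was the only 1 of the 10 genes called higher there, against 3.81% of all genes, and 264 of 9745 genes had a higher ratio.

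The root difference in Tgfb3 was larger in the few male root cells. Male cells held 126 CPM (102 to 153) in Root eGFP and 122 CPM (110 to 135) in Root tdTomato, against 88.5 and 73.6 CPM in female cells of these groups. In female cells the log2 ratio of Root tdTomato to Asc-RFP was 0.03 (-0.06 to 0.13), and in male cells it was 1.01 (0.84 to 1.17). For Root eGFP to Asc-GFP the values were 0.42 in female cells, where the call was lost, and 1.16 in male cells. The male values rest on these 64 and 223 cells from an unknown number of animals, so sex and animal cannot be told apart.

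Tgfb1, the ligand with a well known role in immune regulation and fibrosis, was the least counted ligand and lies at chr7:25687002-25705077 on the plus strand. It stood at 21.6 CPM (Root eGFP), 29.5 (Root tdTomato), 20.8 (Asc-GFP), 24.1 (Asc-RFP) and 24.4 (Arch-GFP). Root tdTomato was above the other 4 groups, which did not differ from their neighbours in order beyond counting error. Of all ligand UMIs, Tgfb2 made up 59.6% in Root eGFP and 71.8% in Asc-RFP, Tgfb3 32.9% and 20.7%, and Tgfb1 7.48% and 7.52%. These are shares of 3′ end counts, and how well each transcript was captured is unknown.

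Of the receptors, Tgfbr1 varied little (1.12-fold over the groups), Tgfbr3 by 1.22-fold and Tgfbr2 by 1.42-fold. The genes lie apart, Tgfbr1 at chr4:47353222-47414931 (plus), Tgfbr2 at chr9:116084293-116175360 (minus) and Tgfbr3 at chr5:107106570-107289629 (minus). Tgfbr1, the kinase that passes the signal to SMADs, was at 79.1 CPM (Root eGFP), 83.5 (Root tdTomato), 79.3 (Asc-GFP), 78.7 (Asc-RFP) and 88.1 (Arch-GFP). Over all cells, Arch-GFP was highest by 0.08 on the log2 scale over the next group, and the lowest 3 groups did not differ beyond counting error. By sex the order differed. In female cells Root tdTomato was highest, at 85.2 CPM (81.3 to 89.3), and Arch-GFP was at 77.2 CPM (73.6 to 81.0). The log2 ratio of Arch-GFP to Asc-GFP was 0.15 over all cells, 0.03 (-0.05 to 0.12) in female and 0.05 (-0.03 to 0.12) in male cells. Tgfbr2, which binds the ligand first, was at 48.0, 61.4, 44.1, 49.7 and 43.1 CPM, with the groups listed as for Tgfbr1. Only Root tdTomato stood apart from its neighbour in order, at a log2 ratio of 0.31 (0.21 to 0.40) to Asc-RFP. Tgfbr3 encodes betaglycan, a co-receptor that presents ligand to the other receptors. It was at 32.1, 37.7, 31.0, 37.5 and 34.0 CPM, so that both tdTomato groups were level with each other and highest. No receptor was called in any of the 5 comparisons, where 2.88% to 8.05% of all genes were called.

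Ltbp1 (chr17:75005568-75392512, plus) and Ltbp4 (chr7:27305136-27337692, minus) were the most counted binders. Ltbp1, which binds latent ligand covalently, was at 330 CPM (Root eGFP), 388 (Root tdTomato), 417 (Asc-GFP), 470 (Asc-RFP) and 474 (Arch-GFP). Asc-RFP and Arch-GFP did not differ beyond counting error, and each lower group differed from the next. Ltbp3 (chr19:5740904-5758532, plus), another binder of latent ligand, was at 149, 152, 194, 179 and 207 CPM in that order, with the 2 root groups level and lowest. Against the ascending group of the same colour, the log2 ratio in the root was -0.34 (eGFP) and -0.28 (tdTomato) for Ltbp1. For Ltbp3 it was -0.39 and -0.24. Ltbp4, which is needed for elastic fibre assembly, was at 489, 479, 440, 431 and 456 CPM, so it was slightly higher in the root, by a log2 ratio of 0.15 in either colour. Tgfb3 overlaps Ttll5 on the opposite strand at its 3′ end, which was at 7.11 to 15.2 CPM, and which strand was counted is not given.

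Ltbp2 encodes a microfibril protein of the same family that does not bind latent TGF-beta, and lies at chr12:84783212-84876532 on the minus strand. Its level was 29.7 CPM (Root eGFP), 29.9 (Root tdTomato), 43.0 (Asc-GFP), 43.0 (Asc-RFP) and 82.7 (Arch-GFP). The levels fell into 3 steps by segment, root, ascending and arch, and the 2 colours of a segment did not differ beyond counting error. The log2 ratio of Arch-GFP to Asc-GFP was 0.94 (0.89 to 0.999), and 85 of 9733 genes had a higher one. Ltbp2 was the only 1 of the 10 called there, against 2.88% of all genes, or 2.15% called higher. From root to ascending it was -0.53 (-0.73 to -0.34) for eGFP cells and -0.52 (-0.64 to -0.40) for tdTomato cells. With Tgfb3, this made 2 of 10 genes called between Root eGFP and Asc-GFP, where 7.78% of all genes were called and 3.97% called lower. Between Root tdTomato and Asc-RFP, Ltbp2 was the only one, where 8.05% were called and 2.93% called lower. Both root calls of Ltbp2 lay near the threshold. They were lost in barcodes with at least 2000 genes and at most 5% mitochondrial UMIs (-0.45 in either colour) and in female cells (-0.40 for eGFP, -0.48 for tdTomato). With cells thinned to 4000 UMIs, the ratio was -0.30 (-0.66 to 0.05) for eGFP and -0.48 (-0.70 to -0.26) for tdTomato, neither called. Comparisons with Asc-GFP or Asc-RFP share those cells, and both root groups come from 1 library. None of the 10 was called between Root eGFP and Root tdTomato, where 5.18% of all genes were.

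**Figure D2:**
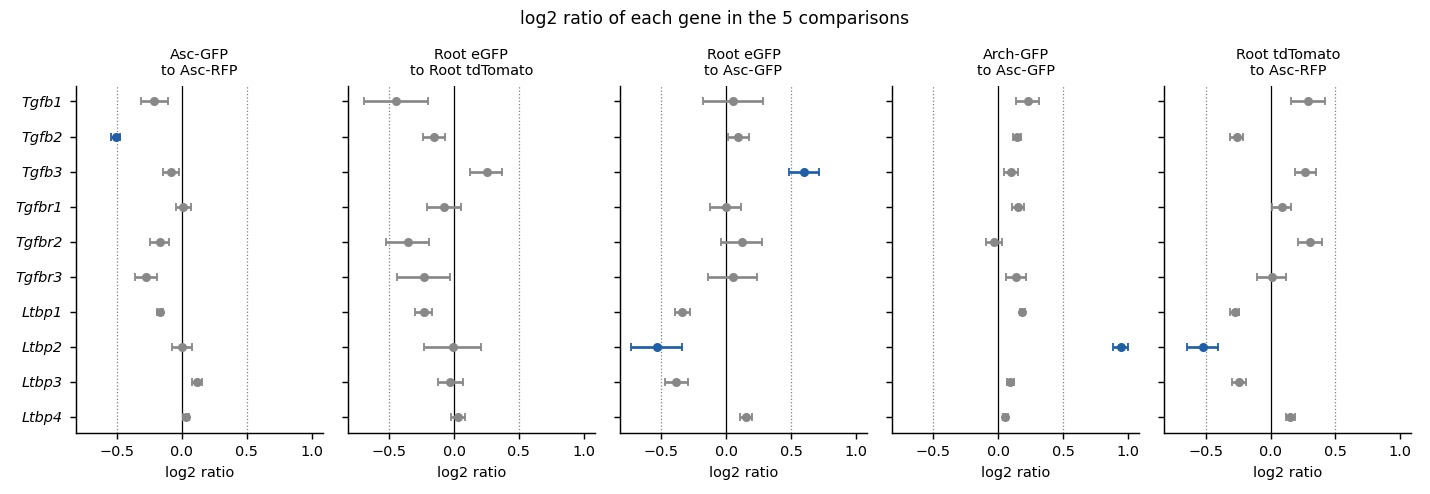
log2 ratio of each of the 10 genes (horizontal axes) in the 5 comparisons, with 95% counting intervals. Blue points are called and grey points are not; dotted lines mark 0.5 in either direction, and Ltbp2 is blue at 0.94 in Arch-GFP to Asc-GFP and at -0.53 and -0.52 in the root comparisons.

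The step of Ltbp2 between arch and ascending aorta was present in both sexes, at a log2 ratio of 0.60 (0.51 to 0.70) in female and 1.14 (1.04 to 1.25) in male cells. In the root, male cells had fewer UMIs of it: 7 UMIs in 64 Root eGFP cells, or 8.80 CPM (3.54 to 18.1), and 21.2 CPM in Root tdTomato. Female cells had 33.4 and 31.5 CPM. In the ascending groups, female and male cells were alike, at 40.2 to 44.0 CPM.

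Within Arch-GFP, Ltbp2 was higher in cells with RNA of Dlx5, Dlx6 and Tfap2b than in cells without. These are genes of transcription factors that pattern the pharyngeal arches. Arch-GFP had 987 cells with at least 2 UMIs of these genes, 12.3% of its cells, against 0.921% in Asc-GFP and 0.199% in Asc-RFP. Ltbp2 was at 220 CPM (212 to 228) in these 987 cells and at 53.3 CPM (51.6 to 54.9) in the 6192 arch cells with none. The log2 ratio was 2.05 (1.98 to 2.12), and it was 2.05 in female and 2.13 in male cells.

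Ltbp1 and Ltbp3 were higher in the same cells and Ltbp4 was not called. Ltbp1 was at 729 CPM in the cells with Dlx RNA and 423 CPM in those without (log2 ratio 0.79). Ltbp3 was at 292 and 188 CPM (0.63). Ltbp4 was nearly level, at 474 and 454 CPM (0.06). Ltbp1, Ltbp2 and Ltbp3, 3 of the 10 genes, were called higher and none lower. Of all genes, 17.2% were called and 13.5% were called higher. Tgfb2 was higher by 0.45 and Tgfb3 lower by a log2 ratio of -0.37, both inside the threshold. The median depth was alike, 12821 against 12767 UMIs.

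The same 3 binders were higher in the 59 Asc-GFP cells with at least 2 UMIs of these genes. There Ltbp2 was at 121 CPM (100.2 to 145), against 41.3 CPM in the 6154 Asc-GFP cells with none. Ltbp1 was at 625 against 411 CPM and Ltbp3 at 274 against 192 CPM. Asc-RFP had only 8 such cells, and the pattern differed there. Ltbp1 was at 303 CPM (215 to 416), against 471 CPM in the 3968 Asc-RFP cells with none. Ltbp4 was at 1236 CPM (1049 to 1447) against 428 CPM. Ltbp2 was at 87.7 CPM (43.8 to 157) against 42.9 CPM, and Ltbp3 at 247 CPM (168 to 351) against 179 CPM. In cells without any such UMI, the log2 ratio of Arch-GFP to Asc-GFP was 0.37 (0.30 to 0.43) for Ltbp2, 0.04 for Ltbp1 and -0.03 for Ltbp3. The call of Ltbp2 between arch and ascending aorta was lost in these cells.

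Marker sums moved with this split. SMC markers summed to 36878 CPM in arch cells with at least 2 Dlx and Tfap2b UMIs and to 51714 CPM in those with none. Pericyte markers summed to 1909 against 615 CPM, and strict fibroblast markers to 50.2 against 15.0 CPM. The 134 Arch-GFP barcodes with at least 3 strict fibroblast marker UMIs were also high in Ltbp2, at 243 CPM (223 to 264). They had 758 CPM of Ltbp1 and 290 CPM of Ltbp3. The part of these markers in the result was not tested. Without the barcodes that held at least 5 macrophage, 5 endothelial or 3 strict fibroblast marker UMIs, the arch to ascending log2 ratio of Ltbp2 was 0.89.

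**Figure D3:**
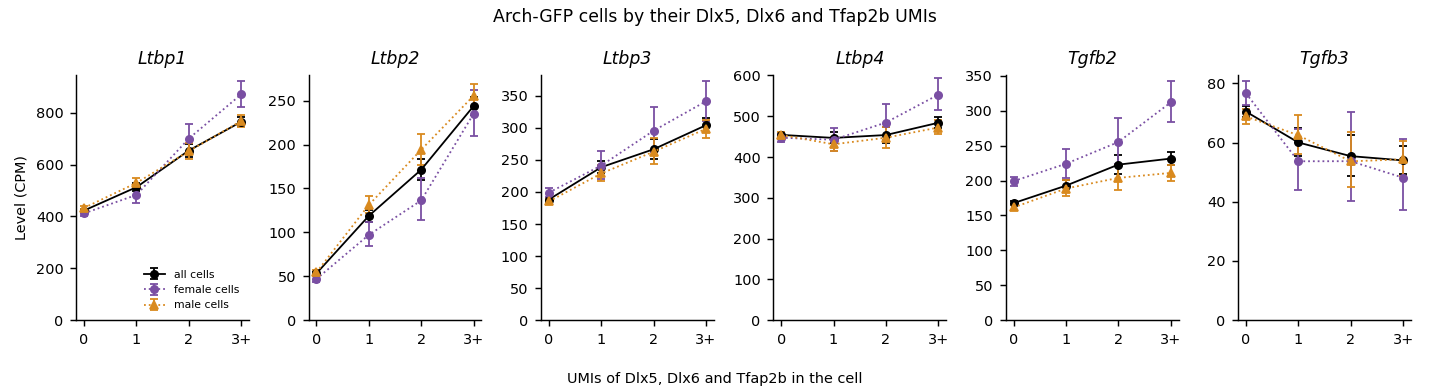
Level in CPM (vertical axes, from 0) of the 4 binders, Tgfb2 and Tgfb3 in Arch-GFP cells with 0, 1, 2 and at least 3 UMIs of Dlx5, Dlx6 and Tfap2b (horizontal axes), for all, female and male cells, with 95% counting intervals. Ltbp2 goes from 53.3 over 119 and 171 to 244 CPM in all cells, while Tgfb3 goes from 70.5 to 54.0 CPM.

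Genes with a pattern most like Ltbp2 over the 5 groups were Nbl1 (Pearson r of log2 CPM 0.994), Zbtb16 (0.990) and Timp1 (0.986), of 227 candidates with at least a 2-fold range. Nbl1, a secreted inhibitor of bone morphogenetic proteins, was at 63.0 CPM in Arch-GFP and at 20.8 CPM in Root tdTomato. With 5 points that share libraries, these values are descriptions.

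Tgfb3 and Ltbp2 also varied with the immediate-early genes Fos, Fosb, Egr1 and Atf3, which are known to come on during tissue digestion. These 4 genes summed to 624 CPM (Root eGFP), 531 (Root tdTomato), 366 (Asc-GFP), 440 (Asc-RFP) and 254 (Arch-GFP). Root eGFP was highest both in these and in Tgfb3. Arch-GFP was lowest in these but had 67.3 CPM of Tgfb3, against 62.8 CPM in Asc-GFP. Their part in the levels of Tgfb3 by group was not tested. Within each library, cells were ranked by their share of these UMIs and cut into 5 equal parts. Cells with none fill the lowest part in file order, in Arch-GFP the lowest 2. In the highest part, Tgfb3 was at 110 CPM for Root, 86.5 for Asc-GFP, 89.6 for Asc-RFP and 89.8 for Arch-GFP. In the lowest part it was at 67.1, 55.2, 52.2 and 59.0 CPM. The log2 ratio of highest to lowest part was 0.61 to 0.78 in the 4 libraries, and Tgfb3 was called higher in each. Of all genes, 4.52% were called higher for Root, 1.54% for Asc-GFP, 1.82% for Asc-RFP and 1.1% for Arch-GFP.

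Tgfb2 was higher in the highest part too, by a log2 ratio of 0.75 in Root and 0.22 to 0.47 elsewhere. For Ltbp2 the ratio was -0.54 for Root and -0.52 for Asc-GFP, both called lower (4.77% and 2% of all genes), and -0.40 for Asc-RFP and -0.47 for Arch-GFP. Called genes made up 3 of the 10 for Root (9.29% of all genes), 2 for Asc-GFP (3.54%), 1 for Asc-RFP (5.33%) and 1 for Arch-GFP (3.21%). Tgfb1, the receptors and the other binders were not called in any library. Macrophage markers moved with the order in Root, at 1380 against 137 CPM in the highest and lowest part, and their part in these values was not tested.

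In cells with at most 2 immediate-early UMIs per 10000, the log2 ratio of Root eGFP to Asc-GFP for Tgfb3 was 0.38 (0.20 to 0.55) and no longer called. That of Ltbp2 was -0.36 there. From Arch-GFP to Asc-GFP, Ltbp2 stood at 0.92 in these cells, still called. By sex, this RNA summed to 505 CPM in male and 658 CPM in female Root eGFP cells, and to 357 and 556 CPM in Root tdTomato. In Asc-GFP it summed to 226 CPM in male and 443 CPM in female cells, and in Asc-RFP to 304 and 575 CPM. Its part in the root values of Tgfb3 by sex was not tested.

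**Figure D4:**
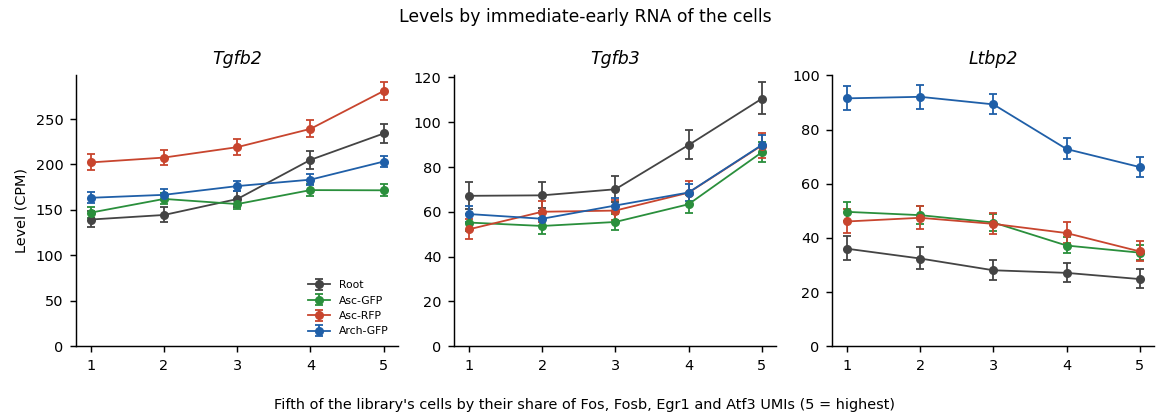
Level in CPM (vertical axes, from 0) of Tgfb2, Tgfb3 and Ltbp2 in 5 equal parts of each library's cells, ordered by their share of Fos, Fosb, Egr1 and Atf3 UMIs (horizontal axes), with 95% counting intervals. Tgfb3 is highest in the last part in all 4 libraries, at 86.5 to 110 CPM, and Ltbp2 is lowest there.

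Cells of other types in the root differed in these genes. Of the kept Root barcodes, 101 held at least 5 UMIs of macrophage markers, and these had 119 CPM of Tgfb1 (99.1 to 142) against 25.0 CPM in the 2759 barcodes without other cell types' markers. Tgfbr2 was at 172 against 55.2 CPM. Tgfb2 (49.0 against 185 CPM), Tgfb3 (38.4 against 84.2 CPM) and Ltbp1 (96.0 against 370 CPM) were lower. These barcodes made up 3.41% of Root and held 10.8% of its Tgfb1 UMIs. They also held Acta2, at 10655 CPM against 19271 CPM in the rest, so RNA of SMCs was in them as well.

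A further 87 Root barcodes held at least 5 endothelial marker UMIs, many of them near that bound: 35 lay just inside it and 213 just outside. Ltbp1 was at 549 CPM there, Ltbp4 at 785 CPM, Tgfbr2 at 119 CPM and Tgfbr3 at 61.5 CPM, all above the rest. Root tdTomato held 44 of the macrophage and 57 of the endothelial barcodes and Root eGFP 4 of each. Without them, the log2 ratio of Root eGFP to Root tdTomato went from -0.45 to -0.23 for Tgfb1 (-0.48 to 0.02) and from -0.36 to -0.21 for Tgfbr2. For Root tdTomato to Asc-RFP, it went from 0.29 to 0.18 for Tgfb1 and from 0.31 to 0.19 for Tgfbr2. Ltbp2 in that comparison went from -0.52 to -0.49 and was no longer called.

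**Figure D5:**
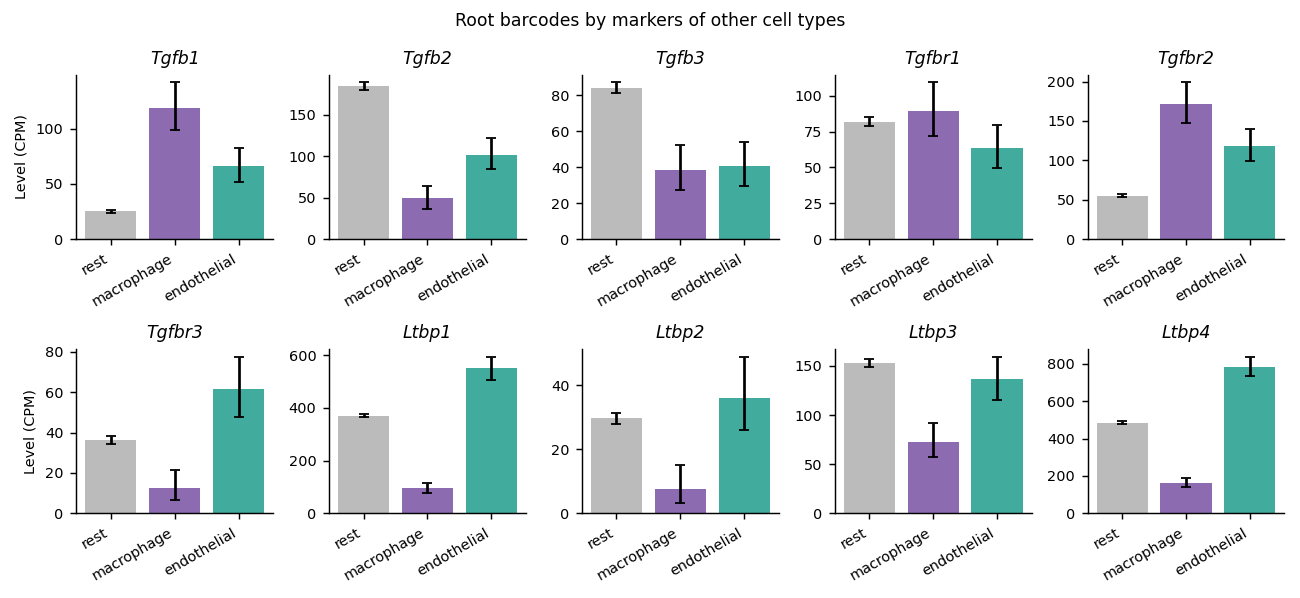
Level of each of the 10 genes in CPM (vertical axes, from 0) in Root barcodes with macrophage markers, with endothelial markers, and in the rest, with 95% counting intervals. Tgfb1 and Tgfbr2 are highest with macrophage markers, at 119 and 172 CPM, and Ltbp1 and Ltbp4 with endothelial markers, at 549 and 785 CPM.

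Root tdTomato cells with at least 5 UMIs of Lum and Dcn, proteoglycan genes of fibroblasts and valve cells, formed a further group of 145 cells. Against the 1556 cells with at most 1, Ltbp2 was at 58.4 against 24.0 CPM (log2 ratio 1.28) and Tgfb1 at 44.1 against 28.0 CPM (0.65). Tgfb2 was lower, at 131 against 198 CPM (-0.59), and so was Tgfb3, at 50.5 against 83.9 CPM (-0.73). These 4 genes were called, where 15.3% of all genes were, 11.3% higher and 4% lower. Other markers moved with this split: endothelial markers summed to 669 against 72.7 CPM, strict fibroblast markers to 73.1 against 10.98 CPM, macrophage markers to 15.2 against 679 CPM and SMC markers to 34552 against 50760 CPM. Their part in it was not tested.

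The wider pathway was described by 4 lists. Of 24 genes for release and holding of latent TGF-beta, 20 were measured between Asc-GFP and Asc-RFP, and 4 were lower and none higher, where 1.93% of all genes were lower and 3.58% called in all. They were led by Thbs1, an activator of latent ligand (3.06 against 11.8 CPM), Dcn, which binds free ligand (16.1 against 59.0 CPM), and the integrin gene Itgb8 (12.2 against 18.2 CPM). Between Root eGFP and Asc-GFP, 3 of 20 were higher and 4 lower (3.81% and 3.97% of all genes). Thbs1 was at 48.6 against 3.06 CPM, a log2 ratio of 3.99, while the protease gene Htra3 was at 36.9 against 73.4 CPM and Mmp2 at 4.82 against 9.19 CPM. Between Root tdTomato and Asc-RFP, 3 of 20 were higher and 3 lower (8.05% of all genes called), and Thbs1 was again higher (1.03), with Dcn (1.23) and Lrrc32 (0.84), which tethers latent ligand to the cell surface. Between Arch-GFP and Asc-GFP, Lrrc32 (0.95) and Mmp2 (0.68) were higher and Aspn lower (-0.86), of 19 measured (2.88% of all genes called). Between the root colours, Dcn (-2.28) and Mmp2 (-1.31) were lower in eGFP cells and Thbs1 higher (1.01), of 20 measured (5.18% of all genes called).

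Of 19 SMADs and their regulators, 2 were called between Asc-GFP and Asc-RFP (3.58% of all genes), 3 between Root tdTomato and Asc-RFP (8.05%) and 1 between Root eGFP and Asc-GFP (7.78%). Smad6, an inhibitory SMAD of the bone morphogenetic protein branch, was higher in Asc-GFP than Asc-RFP (log2 ratio 0.67), and so was Smad9 (0.51). Higher in Root tdTomato than Asc-RFP were Smad6 (1.12), Smad9 (0.63) and Smad7 (0.99), the inhibitory SMAD induced by TGF-beta. Zfyve9, an adaptor for receptor and SMAD, was the only one called between Root eGFP and Asc-GFP (0.52). No gene of this list was called between the root colours (5.18% of all genes) or between Arch-GFP and Asc-GFP (2.88%).

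Of 27 TGF-beta response genes, 24 or 25 were measured. Against Asc-RFP, Root tdTomato had 5 higher and 2 lower, where 8.05% of all genes were called. Against Asc-GFP, Root eGFP had 2 higher and 5 lower, where 3.81% and 3.97% of all genes were. Ltbp2 is also on this list and was among the lower genes in both comparisons. Smad7, already counted with the SMADs, was among the higher genes in Root tdTomato. Eln, the gene of elastin, was lower in Root eGFP than Asc-GFP, at 1393 against 2276 CPM. Junb, an immediate-early gene on this list, was higher in Root eGFP than Asc-GFP (1.06), and Tgfbi was higher in Root tdTomato than Asc-RFP (1.14). Tgfbi had 0 UMIs in Root eGFP, where 3 UMIs would be 0.391 CPM, and was at 9.03 CPM in Root tdTomato and 4.10 CPM in Asc-RFP. Macrophage markers, at 23.3, 666 and 186 CPM in these groups, moved with it, and their part in these values was not tested. Cdkn2b, a cell-cycle inhibitor gene, was the other call between the root colours (0.52, higher in eGFP), where 5.18% of all genes were called. Junb was lower in Asc-GFP than Asc-RFP (-0.50), where 1.93% of all genes were called lower. Timp1 (0.87) and Ltbp2 itself were higher in Arch-GFP than Asc-GFP, and none lower. There, 2.15% of all genes were called higher and 2.88% in all. The list median of log2 ratios was -0.19 from Root eGFP to Asc-GFP and -0.15 from Root tdTomato to Asc-RFP, against -0.01 and 0.01 over all genes measured.

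Of 10 other receptors and co-receptors, Eng, the endoglin gene, was lower in Root eGFP than Root tdTomato (-0.61) and higher in Root tdTomato than Asc-RFP (0.81). Acvr1b was higher in Root eGFP than Root tdTomato (0.51). Cd109, a co-receptor that dampens the signal, was higher in Arch-GFP than Asc-GFP (0.51). None was called in the other 2 comparisons. Of all genes, 5.18% were called between the root colours, 8.05% between Root tdTomato and Asc-RFP and 2.88% between Arch-GFP and Asc-GFP. In the other 2 the share was 3.58% (Asc-GFP and Asc-RFP) and 7.78% (Root eGFP and Asc-GFP). Endothelial cells also make Eng, and fibroblasts make Dcn, and Root tdTomato held most of the root barcodes with endothelial markers. Their part in these values was not tested.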

How the data were processed

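The values used are UMI counts that the authors deposited, produced by Cell Ranger 7.0.0 per the file headers. The genome was mm10 and Seurat 4.3 followed, per the submitters' processing notes; nothing from Seurat was used. The notes state 1841, 4050, 2450 and 4710 cells after the authors' filter (Root, Asc-GFP, Asc-RFP, Arch-GFP), which was not given and not repeated; 2960, 6408, 4030 and 8031 of 4040, 8845, 6539 and 10506 barcodes were kept. The 10 genes, the lists and the cell splits were chosen with earlier results of these data known. UMIs were summed per cell group and scaled to CPM over all features. Levels have exact Poisson intervals and ratios exact conditional binomial intervals, at 95%. No doublet caller was run and free RNA was not removed; cells with both Xist and Y-linked UMIs made up 1.04% to 10.2% of a group. Kept barcodes shared with another library numbered 17 to 38 per library. All 10 members were named; of each list, up to 3 called genes with the largest ratio per comparison, some of which are not reported here. Interval and call rules were tested on simulated Poisson counts. These follow the counting model that the intervals assume, so the test does not cover spread between cells, animals or libraries. Promoters came from RefSeq (GRCm38.p6), with entries for 8 of 10 genes. Calculations used Python 3.11.15, numpy 2.4.6, scipy 1.17.1 and pandas 2.3.3.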

Additional observations from a re-analysis of the deposited data

Results flagged for a closer look

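Tgfb3 had a log2 ratio of eGFP to tdTomato cells of 0.25 in the root and of -0.081 in the ascending aorta, opposite directions with intervals that both left out 0. The ratios differed by 0.33 (0.19 to 0.47, counting error only). Tgfb2 had a log2 ratio of root to ascending cells of 0.093 in eGFP cells and of -0.26 in tdTomato cells, again opposite, and these differed by 0.36 (0.26 to 0.45). With 1 library per group, neither difference was tested. Neither pair stayed opposite beyond counting error under every setting. In cells with at most 2 immediate-early UMIs per 10000, the Tgfb3 ratio was 0.12 (-0.08 to 0.31) in the root. In the ascending aorta it was -0.05 (-0.13 to 0.03). Tgfb2 from Root eGFP to Asc-GFP was -0.17 (-0.30 to -0.05) in these cells. It was -0.05 (-0.17 to 0.07) with at least 2000 genes and at most 5% mitochondrial UMIs. Without barcodes with other cell types' markers it was 0.10 (0.01 to 0.18). In female cells, Tgfb2 from Root tdTomato to Asc-RFP was -0.45, and in male cells it was 0.21. From Root eGFP to Asc-GFP it was 0.07 (-0.02 to 0.16) in female and -0.12 (-0.41 to 0.15) in male cells.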

How the results depend on the processing

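The log2 ratio of each gene was recomputed under other settings, 1 at a time; the stricter barcode filter moved its gene minimum and mitochondrial limit together. Of 720 values, 616 stayed inside the interval of the reported value, 104 did not, and no called value changed sign; without the settings by sex, 563 of 620 stayed inside. Of 72 counts of called members, 55 stayed within 1.5 times the reported count. With at least 2000 genes and at most 5% mitochondrial UMIs, the count went to 0 for Asc-GFP and Asc-RFP, to 1 for Root eGFP and Asc-GFP and to 0 for Root tdTomato and Asc-RFP. With cells thinned to 4000 UMIs it was 2 for the root colours (Tgfb1 and Tgfbr2), 1 for Root eGFP and Asc-GFP and 0 for Root tdTomato and Asc-RFP. With every cell given the same weight, it was 1 for the root colours (Tgfb1). In female cells it was 0 for Root eGFP and Asc-GFP and 0 for Root tdTomato and Asc-RFP. In male cells it was 0 for the ascending colours, 3 for the root colours (Tgfb2, Tgfbr2 and Ltbp2), 3 for Root tdTomato and Asc-RFP (Tgfb3, Ltbp2 and Ltbp3), and 3 rather than 2 for Root eGFP and Asc-GFP, with Ltbp3 added at -0.71 and Ltbp2 at -2.19. Without barcodes holding both Xist and Y-linked UMIs it was 0 for the ascending colours, and without barcodes with markers of other cell types it was 0 for Root tdTomato and Asc-RFP. Settings added after seeing the data gave 0 in cells with at most 2 immediate-early UMIs per 10000 for the ascending colours and for Root eGFP and Asc-GFP, and 0 in cells without Dlx5, Dlx6 or Tfap2b UMIs for Arch-GFP and Asc-GFP. The cause of each change was not tested. No paired analysis was possible because each group is 1 library.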

Other observations

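The 562 Root cells that entered neither colour group had 132 CPM of Tgfb2 (123 to 141), below all 5 groups, and 34.6 CPM of Tgfb1 and 70.2 CPM of Tgfbr2, above all 5. Ltbp2 was at 27.0 CPM and Ltbp4 at 510 CPM in them. Of these cells, 53 held at least 5 macrophage marker UMIs and 26 others at least 5 endothelial marker UMIs, and the part of these in the values was not tested.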
